A study of Mus musculus with 18 samples.

Results

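A set of 10 transcription factor genes of the naive pluripotent state, Klf2, Klf4, Klf5, Esrrb, Zfp42, Tfcp2l1, Tbx3, Nr5a2, Nr0b1 and Prdm14, was followed while mouse embryonic stem cells (mESCs) left pluripotency. They were taken by gene symbol from the 20703 genes of the expression table, all 10 were found, and how far each was shut off was compared between WT and Nsd1-knockout (KO) cells. RNA was sequenced from E14 mESCs, a line derived from a mouse blastocyst, that were WT or belonged to 1 of 2 clonal lines, Nsd1-KO-1 and Nsd1-KO-2, in which exon 5 of Nsd1 had been deleted with a pair of Cas9 complexes. Nsd1 encodes a methyltransferase that places H3K36me2 on histones. The methods of the study describe the KO clones as sorted single cells from E14 mESCs whose Nsd1 gene already carried a Flag tag, and they do not state whether the WT libraries came from tagged cells. Each clone is the progeny of a single cell, and within a clone the loss of Nsd1 cannot be told apart from whatever else that cell carried. Cells were grown with LIF, the cytokine that sustains self-renewal in serum, on feeder fibroblasts or gelatin, and differentiation in monolayer was started by taking away LIF and the feeders. Poly-A RNA was collected at day 0, 2 and 4, with 2 biological replicates for each of WT, KO-1 and KO-2 at each day, 18 libraries in all. The labels of every library, day 0 included, give the withdrawal as treatment, and day 0 was taken as the culture at the start of it. The libraries held 9309874 to 23921193 counts on genes (median 15721348), and the WT libraries of day 2 were the shallowest, at 9309874 and 9356867.

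The naive state is held by a network of transcription factors that activate one another and the core factors Pou5f1, Sox2 and Nanog. LIF feeds into it through STAT3, which acts on Klf4 and Tfcp2l1, while inhibition of ERK and GSK3 signalling acts on Nanog, Esrrb and Klf2. When LIF is withdrawn the network is dismantled, a step known as exit from naive pluripotency, and formative genes such as Fgf5, Otx2 and Pou3f1 come on before the germ layers are specified. Several of the factors return later in particular lineages, among them Klf5 and Tbx3 in endoderm and extraembryonic tissue.

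At day 0 all 10 genes were expressed in WT. Divided by exonic length (GENCODE M21, GRCm38, whereas the authors aligned to mm39 and their table gives no coordinates), the WT level fell in the order Zfp42 (4630 ± 56.8 normalized counts per kb), Klf2 (3136 ± 65.2), Klf4 (2548 ± 27.9), Esrrb (1897 ± 22.8), Tfcp2l1 (1119 ± 22.8), Tbx3 (759.8 ± 0.0466), Nr0b1 (663 ± 12.8), Klf5 (579 ± 4.1), Nr5a2 (249 ± 0.919) and Prdm14 (179 ± 10.7; SD, n = 2). Neighbours in this order were further apart than their SDs. The genes lie apart in the genome. On GRCm38 the genes span, exons and introns included, the following intervals. Klf2 (ENSMUSG00000055148, chr8:72319033-72321656, plus strand), Klf4 (ENSMUSG00000003032, chr4:55527143-55532466, minus strand) and Klf5 (ENSMUSG00000005148, chr14:99298691-99315036, plus strand) are on 3 chromosomes. Esrrb (ENSMUSG00000021255, chr12:86361117-86521628, plus strand), Nr5a2 (ENSMUSG00000026398, chr1:136842571-136960448, minus strand) and Nr0b1 (ENSMUSG00000025056, chrX:86191764-86195947, plus strand) are likewise apart. Zfp42 (ENSMUSG00000051176, chr8:43295063-43306980, minus strand) shares a chromosome with Klf2, and Tfcp2l1 (ENSMUSG00000026380, chr1:118627945-118685168, plus strand) and Prdm14 (ENSMUSG00000042414, chr1:13113457-13127163, minus strand) share one with Nr5a2. Tbx3 (ENSMUSG00000018604, chr5:119670669-119684724, plus strand) has its chromosome to itself.

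Because most of the set moved together, the promoters were read. RefSeq start sites on GRCm38.p6 were given for 7 of the 10 genes, in 9 windows, and not for Klf5, Tbx3 and Prdm14. The 250 bases before each start were searched on both strands for TCAAGGTCA, the element of Esrrb and of Nr5a2, for the STAT element TTCCNGGAA, for the octamer ATGCAAAT of Pou5f1, for the SOX element CATTGTT, for the CACCC box CCACCC and for the GC box GGGCGG, both of which KLF and SP proteins can bind. These motifs share no sequence that makes one contain another. The 3 genes with the highest level per kb are shown with Tfcp2l1, the one gene of the 7 without any of these motifs, 5′ to 3′ on the coding strand and with the matches in capitals.
Zfp42, chr8:43307010-43307259, minus strand: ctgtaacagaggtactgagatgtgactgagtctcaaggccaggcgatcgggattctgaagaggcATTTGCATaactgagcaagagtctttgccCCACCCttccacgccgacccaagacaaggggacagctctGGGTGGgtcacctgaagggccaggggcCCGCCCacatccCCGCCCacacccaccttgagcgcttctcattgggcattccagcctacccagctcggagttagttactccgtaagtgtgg
Klf2, chr8:72318812-72319061, plus strand: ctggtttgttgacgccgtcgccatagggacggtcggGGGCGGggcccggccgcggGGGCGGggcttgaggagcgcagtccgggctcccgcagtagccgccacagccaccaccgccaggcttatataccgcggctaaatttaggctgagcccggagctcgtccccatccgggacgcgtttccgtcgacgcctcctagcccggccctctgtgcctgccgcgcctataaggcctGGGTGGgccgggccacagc
Klf4, chr4:55532476-55532725, minus strand: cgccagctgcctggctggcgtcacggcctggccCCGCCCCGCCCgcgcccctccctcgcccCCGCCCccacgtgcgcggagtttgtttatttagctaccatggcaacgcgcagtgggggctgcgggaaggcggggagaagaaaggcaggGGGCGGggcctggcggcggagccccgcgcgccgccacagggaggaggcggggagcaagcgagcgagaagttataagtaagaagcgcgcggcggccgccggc
Tfcp2l1, chr1:118627695-118627944, plus strand: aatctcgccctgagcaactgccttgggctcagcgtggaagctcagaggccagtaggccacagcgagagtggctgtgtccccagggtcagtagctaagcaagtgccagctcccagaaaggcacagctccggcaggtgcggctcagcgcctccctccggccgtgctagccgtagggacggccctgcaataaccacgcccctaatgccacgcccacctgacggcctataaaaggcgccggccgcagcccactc
In the window of Zfp42 the capitals mark an octamer 186 bases before the start, read on the other strand as ATTTGCAT, 2 CACCC boxes and 2 GC boxes. Klf2 held 1 CACCC box and 2 GC boxes and Klf4 had 4 GC boxes, of which the first 2 overlap by a base. CACCC boxes stood in 6 of the 9 windows, from 5 genes, against 28.1% of the 32851 RefSeq windows of the same length. The octamer, in 1 of the 9, stood in 1.6% of all windows and the GC box, in 3 of the 9, in 32.7%. The element of Esrrb and Nr5a2, the STAT element and the SOX element, in 0.387%, 0.913% and 3.29% of all windows, were in none of the 9. A match says that the letters are there and not that a protein binds them.

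The deposited values had gone through DESeq2's variance stabilizing transformation (VST), on a log2 scale in which 8.36 stands for a count of 0 and differences between low counts are compressed. The transformation was inverted to whole counts, and levels are given as counts divided by the size factors of the authors (normalized counts), for replicate 1 and then replicate 2 of each line. For the tests, the 4 KO and 2 WT libraries of each day were compared with limma, fitted once to the VST values of all 18 libraries in 6 groups, with adjustment over the 20703 genes. Calls needed an adjusted p under 0.01 together with a log2 fold change beyond 0.58 in either direction. The contrasts were fitted a second time by limma-voom, from the recovered counts, which avoids that compression. The p-values measure the spread between replicate cultures and, in KO, between the 2 clones. The 4 KO libraries of a day, 2 cultures of each of the 2 clones, were fitted as if independent. WT is labelled as a single line, so the p-values do not measure how far independently made WT and KO lines vary.

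Nsd1 itself was read first. At day 0 it gave 3374 and 3660 in WT, 837 and 711 in KO-1 and 689 and 635 in KO-2. At day 2 the values were 2773 and 3344 in WT, 854 and 927 in KO-1 and 964 and 1024 in KO-2, and at day 4 they were 2425 and 2111 in WT, 1103 and 910.1 in KO-1 and 575 and 684 in KO-2. Every KO library lay below both WT libraries of its day, and the log2 fold change of the VST value was −1.69 (SE 0.11, adjusted p = 8.77e-10, limma, Benjamini-Hochberg) at day 0, −1.27 (SE 0.11, limma adjusted p = 1.82e-08) at day 2 and −1.06 (SE 0.11, limma adjusted p = 1.47e-07) at day 4. Reads from the exons that were not deleted still count, so the residual level does not measure the protein.

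Over the whole set, the genes lost most of their RNA within 2 days of withdrawal in WT, and at day 2, 9 of the 10, all but Klf5, had kept a larger share in KO. At day 4 Tbx3 too had a smaller share left in KO, 9.89% against 12.5% in WT. The median of the 10 genes fell in WT to 4.3% of the day 0 level at day 2 and to 1.52% at day 4, whereas in KO 16.5% and 13.9% were left. At day 2, 7 of the 10 genes were called higher in KO than in WT and 0 lower (also 0 at an unadjusted p under 0.05 in limma and by limma-voom), where 4.01% of all genes were called higher and 2.37% lower, and the median log2 fold change of the VST value was 1.41 against −0.02 over all genes. At day 4, 6 were called higher and 1 lower, against 3.67% and 3.91% of all genes, with a median of 1.12 against 0.00. At day 0 only Nr0b1 was called, higher in KO, and limma called 0 lower (2 at an unadjusted p under 0.05), against 1.73% and 0.879% of all genes. By limma-voom the calls were 1 higher and 2 lower at day 0 (6.43% and 6.86% of all genes), 9 higher at day 2 (10.3%) and 8 higher and 2 lower at day 4 (10.9% and 13.0%). The limma-voom fold changes of day 2 stand on a median of −0.14 over all genes.

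**Figure D1:**
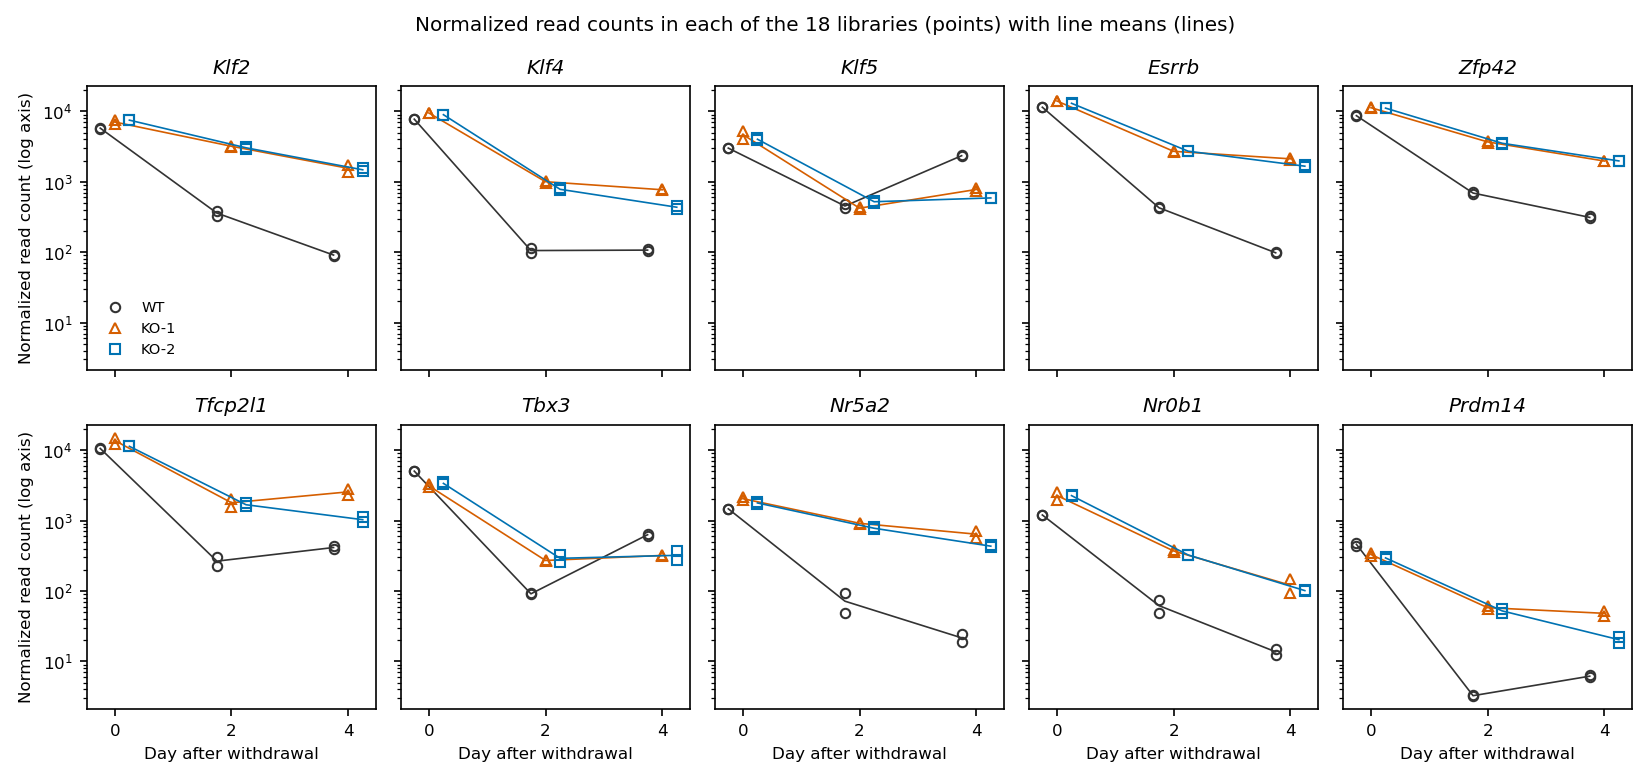
Normalized read counts of the 10 genes (log axis) against the day after withdrawal, with a point for each of the 18 libraries, set apart sideways by line, and lines through the means of WT, KO-1 and KO-2 (n = 2 each). At day 2 and day 4 the KO points lie above the WT points for 8 genes, while those of Klf5 and Tbx3 lie below WT at day 4.

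Klf2, Klf4 and Klf5 are Krüppel-like zinc finger factors that can stand in for one another in maintaining self-renewal. Klf2 had 5877 and 5707 in WT, 6621 and 7518 in KO-1 and 7506 and 7538 in KO-2 at day 0, in normalized counts. At day 2 it gave 332 and 387 in WT, 3267 and 3134 in KO-1 and 3140 and 2948 in KO-2, and at day 4 it gave 92.6 and 89.7 in WT, 1370 and 1745 in KO-1 and 1553 and 1411 in KO-2. Every KO library was above both WT libraries at each day, slightly at day 0 and by 8.68-fold in the means at day 2 and 16.7-fold at day 4. What was left at day 2 was 6.21% ± 0.671 of the day 0 mean in WT (SD, n = 2) and 42.9% ± 3.06 in KO (SD, n = 4), each library being set against the day 0 mean of its own line, and at day 4 it was 1.57% ± 0.0356 and 20.9% ± 2.66. On the VST scale the difference between KO and WT was 0.30 (SE 0.07, limma adjusted p = 0.00276) at day 0, not called, 2.07 (SE 0.07, adjusted p = 2.29e-14, limma, Benjamini-Hochberg) at day 2 and 1.94 (SE 0.07, limma adjusted p = 8.82e-15) at day 4. From day 0 to day 2 Klf2 fell less in KO than in WT, by 1.76 (SE 0.10, adjusted p = 6.24e-10, limma, Benjamini-Hochberg).

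Klf4, one of the reprogramming factors and a target of STAT3, started at 7709 and 7829 in WT, 9376 and 9655 in KO-1 and 8947 and 9029 in KO-2. By day 2 it was down to 97.8 and 114 in WT, 972 and 1037 in KO-1 and 808 and 759 in KO-2, and at day 4 it stood at 103 and 112 in WT, 756 and 788 in KO-1 and 454 and 418 in KO-2. In WT 1.36% ± 0.143 was left at day 2 and 1.38% ± 0.083 at day 4, the values of both days overlapping. KO kept 9.64% ± 1.12 and 6.48% ± 1.89, the lower values of day 4 being those of KO-2. The difference between KO and WT was 1.36 (SE 0.11, adjusted p = 5.85e-09, limma, Benjamini-Hochberg) at day 2 and 1.00 (SE 0.11, limma adjusted p = 3.06e-07) at day 4, and 0.23 at day 0, not called (limma adjusted p = 0.125).

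Klf5, which also acts in the trophoblast and in later epithelia, went the other way at the end. Its counts at day 0 were 2998 and 3028 in WT, 5324 and 4055 in KO-1 and 4161 and 3899 in KO-2. At day 2 they were 420.4 and 486 in WT, 439 and 407 in KO-1 and 504 and 539.5 in KO-2, so that WT and KO overlapped, and the difference was 0.03 (SE 0.10, limma adjusted p = 0.835). As a share of day 0, 15% ± 1.55 was left in WT and 11% ± 2.32 in KO, with every KO library below both WT libraries. At day 4 WT had come back up to 2393 and 2308, 78% ± 1.98 of its day 0 level, while KO-1 had 828 and 730 and KO-2 had 592 and 589, 15.6% ± 1.41. From day 2 to day 4 Klf5 rose in WT by 1.57 (SE 0.11, adjusted p = 4.00e-10, limma, Benjamini-Hochberg) on the VST scale while in KO the difference between these days was 0.29 (SE 0.08, limma adjusted p = 0.00866), not called. No KO library reached the WT range, and Klf5 was the one gene of the 10 called lower in KO at day 4, at −1.25 (SE 0.10, limma adjusted p = 1.07e-09), a level in WT 3.43 times that in KO.

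Esrrb and Nr5a2 are orphan nuclear receptors, Nr0b1 (Dax1) is a nuclear receptor that lacks the usual DNA-binding domain and represses others, and Tfcp2l1 is a grainyhead-like factor downstream of STAT3. Esrrb gave 11570 and 11375 in WT, 14113 and 14054 in KO-1 and 12937 and 13165 in KO-2 at day 0. It had 437 and 419.8 in WT, 2640 and 2786 in KO-1 and 2718 and 2729 in KO-2 at day 2 and 96.6 and 99.8 in WT, 2182 and 2064 in KO-1 and 1707 and 1631 in KO-2 at day 4. Between day 2 and day 4 it fell further in WT, by 0.79 on the VST scale (SE 0.09, limma adjusted p = 2.71e-07), to 0.856% ± 0.0195 of day 0, the lowest share of any of the 10 genes in WT at that day. In KO 20.1% ± 1.02 was left at day 2 and 13.9% ± 1.39 at day 4. Mean counts were 6.35-fold higher in KO at day 2 and 19.3-fold higher at day 4, with VST differences of 1.78 (SE 0.08, adjusted p = 3.78e-13, limma, Benjamini-Hochberg) and 2.15 (SE 0.08, limma adjusted p = 4.35e-15).

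Nr5a2, which drives Pou5f1 expression, had 1463 and 1470 in WT, 2149 and 1938 in KO-1 and 1737 and 1816 in KO-2 at day 0. Its values were 48.9 and 94 in WT, 936 and 889 in KO-1 and 797 and 756 in KO-2 at day 2 and 24.2 and 18.9 in WT, 718 and 561 in KO-1 and 421 and 443 in KO-2 at day 4. The WT libraries of day 2 differed between themselves, on 30 and 58 reads, and were both far below the KO libraries. KO kept 44.2% ± 1.45 of its Nr5a2 at day 2 and 27.8% ± 5.13 at day 4, with Klf2 the largest shares of the 10 genes, against 4.87% ± 2.18 and 1.47% ± 0.251 in WT. The difference on the VST scale was 1.46 (SE 0.09, adjusted p = 1.87e-10, limma, Benjamini-Hochberg) at day 2 and 1.36 (SE 0.09, limma adjusted p = 2.25e-10) at day 4, and by limma-voom, where low counts are not compressed, 3.62 (SE 0.38, adjusted p = 2.82e-07) and 4.61 (SE 0.45, adjusted p = 4.66e-08).

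Nr0b1 was the one gene called at day 0 on the VST values, with 1215 and 1183 in WT, 1980 and 2552 in KO-1 and 2316 and 2200 in KO-2. At day 2 the counts were 75 and 48.6 in WT, 376 and 363 in KO-1 and 326 and 322 in KO-2, and at day 4 they were 12.1 and 15.2 in WT, 92.5 and 149 in KO-1 and 104 and 98.5 in KO-2. Every KO library was above both WT libraries at each day, by 1.89-fold in the means at day 0, 5.61-fold at day 2 and 8.12-fold at day 4. The VST differences were 0.68 (SE 0.07, adjusted p = 2.84e-07, limma, Benjamini-Hochberg), 0.81 (SE 0.07, limma adjusted p = 1.08e-08) and 0.53 (SE 0.07, limma adjusted p = 2.57e-06), of which the last was under the fold threshold. As a share of its own day 0 level 5.15% ± 1.55 was left in WT and 15.3% ± 1.15 in KO at day 2, and 1.14% ± 0.182 and 4.9% ± 1.13 at day 4. Whether Nr0b1 fell less in KO depended on the scale, since from day 0 to day 4 the difference of the changes was −0.15 (SE 0.10, limma adjusted p = 0.302) on the VST values and 2.06 (SE 0.44, adjusted p = 0.00139) by limma-voom.

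Tfcp2l1 began at 10411 and 10715 in WT, 15054 and 12241 in KO-1 and 11314 and 11330 in KO-2. It fell to 227 and 303 in WT, 1580 and 1996 in KO-1 and 1592 and 1759 in KO-2 at day 2, and at day 4 it had 434 and 393 in WT, 2788 and 2317 in KO-1 and 951 and 1105 in KO-2. WT held 2.51% ± 0.513 at day 2 and 3.92% ± 0.27 at day 4, and KO held 14% ± 1.7 and 13.9% ± 5.76. KO lay above WT without overlap at day 2, by 1.58 (SE 0.21, adjusted p = 4.68e-06, limma, Benjamini-Hochberg), and at day 4, by 1.24 (SE 0.21, limma adjusted p = 7.65e-05). Its KO libraries of day 4 split by clone, with KO-1 at 2553 ± 334 and KO-2 at 1028 ± 109.5 (SD, n = 2), and the slower fall in KO, called from day 0 to day 2 at 1.36 (SE 0.30, limma adjusted p = 0.00273), was not called from day 0 to day 4, at 1.02 (SE 0.30, limma adjusted p = 0.0148). The first of these calls was lost without either WT library of day 0 (1.38 and 1.34, limma adjusted p = 0.0142 and 0.017) and without WT replicate 1 of day 2 (1.27, limma adjusted p = 0.0203), and the day 4 difference was not called with that day fitted alone (limma adjusted p = 0.033).

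Zfp42 (Rex1), a zinc finger gene whose reporter is used to mark naive cells, had 8633 and 8784 in WT, 11194 and 11395 in KO-1 and 11181 and 11110 in KO-2 at day 0. There were 669.7 and 716 in WT, 3856 and 3525 in KO-1 and 3491 and 3568 in KO-2 at day 2 and 322 and 303 in WT, 1998 and 1953 in KO-1 and 1986 and 1978 in KO-2 at day 4. The 4 KO libraries of day 4 lay close together, with 17.6% ± 0.237 left, against 3.59% ± 0.154 in WT. VST differences were 1.75 (SE 0.05, adjusted p = 6.43e-15, limma, Benjamini-Hochberg) at day 2 and 1.63 (SE 0.05, limma adjusted p = 1.55e-15) at day 4, and 0.34 (SE 0.05, limma adjusted p = 4.77e-05) at day 0, under the fold threshold. A processed copy, Zfp42-ps1 on chromosome 15, had 253 ± 12 counts in WT at day 0 (SD, n = 2), and reads of the gene and of this copy may have been split between them.

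Tbx3, a T-box factor of self-renewal and of early endoderm, was lower in KO at the start, with 5033 and 5032 in WT, 3254 and 2966 in KO-1 and 3254 and 3481 in KO-2 at day 0. It had 92.9 and 89.1 in WT, 273 and 268 in KO-1 and 321 and 260.3 in KO-2 at day 2 and 647 and 609.9 in WT, 317 and 322 in KO-1 and 366 and 275 in KO-2 at day 4. The order of WT and KO thus turned over and back, with every KO library below both WT libraries at day 0, above them at day 2 and below them at day 4. In WT Tbx3 came back from 1.81% ± 0.0525 to 12.5% ± 0.521 of its day 0 level between day 2 and day 4, a rise of 1.11 (SE 0.07, adjusted p = 5.60e-11, limma, Benjamini-Hochberg), while in KO 8.67% ± 0.736 and 9.89% ± 1.2 were left, a difference of 0.08 (SE 0.05, limma adjusted p = 0.271) that was not called. The differences of the VST values, −0.55 (SE 0.06, limma adjusted p = 6.02e-07), 0.54 (SE 0.06, limma adjusted p = 3.89e-07) and −0.49 (SE 0.06, limma adjusted p = 9.38e-07), were each just under the fold threshold, and by limma-voom all 3 were called, at −0.64 (SE 0.08, adjusted p = 2.48e-06), 1.62 (SE 0.23, adjusted p = 1.15e-05) and −0.97 (SE 0.11, adjusted p = 3.58e-07). An antisense gene, Tbx3os1, shares 115 exonic bases with Tbx3 and had 6.83 normalized counts in WT at day 0, and with a kit that does not mark strand the reads of the shared bases cannot be told apart.

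Prdm14, a SET-domain protein that with its partners keeps Dnmt3b and FGF receptor genes down, was the least abundant of the 10 per kb. It had 479 and 440.2 in WT, 349 and 309 in KO-1 and 286 and 303 in KO-2 at day 0. It had 3.3 and 3.2 in WT, 54.6 and 61 in KO-1 and 49.2 and 54.8 in KO-2 left at day 2, and 6 and 6.3 in WT, 51.9 and 44.2 in KO-1 and 22.4 and 18.2 in KO-2 at day 4. KO was below WT at day 0 and above it at day 2 and day 4, without overlap at any day. The WT values of day 2 rest on 2 reads in each library, and the ratio of KO to WT there, from 231 and 4 reads, was 16.8 with an exact 95% interval of 6.46 to 62.1 that covers counting error only. The interval takes each read as an independent molecule, and since 74.9% of the recovered counts from 1 to 20 were even it may be too narrow. On the VST scale, compressed at this level, Prdm14 was not called at any day, with −0.27 (SE 0.06, limma adjusted p = 0.00116) at day 0, 0.44 (SE 0.06, limma adjusted p = 2.30e-06) at day 2 and 0.26 (SE 0.06, limma adjusted p = 0.00103) at day 4, whereas limma-voom gave −0.59 (SE 0.14, adjusted p = 0.0025), 3.76 (SE 0.74, adjusted p = 4.11e-04) and 2.25 (SE 0.55, adjusted p = 0.00227), all called, lower in KO at day 0 and higher at the later days. From day 0 to day 2 Prdm14 fell less in KO also on the VST scale, by 0.71 (SE 0.08, adjusted p = 3.04e-06, limma, Benjamini-Hochberg).

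**Figure D2:**
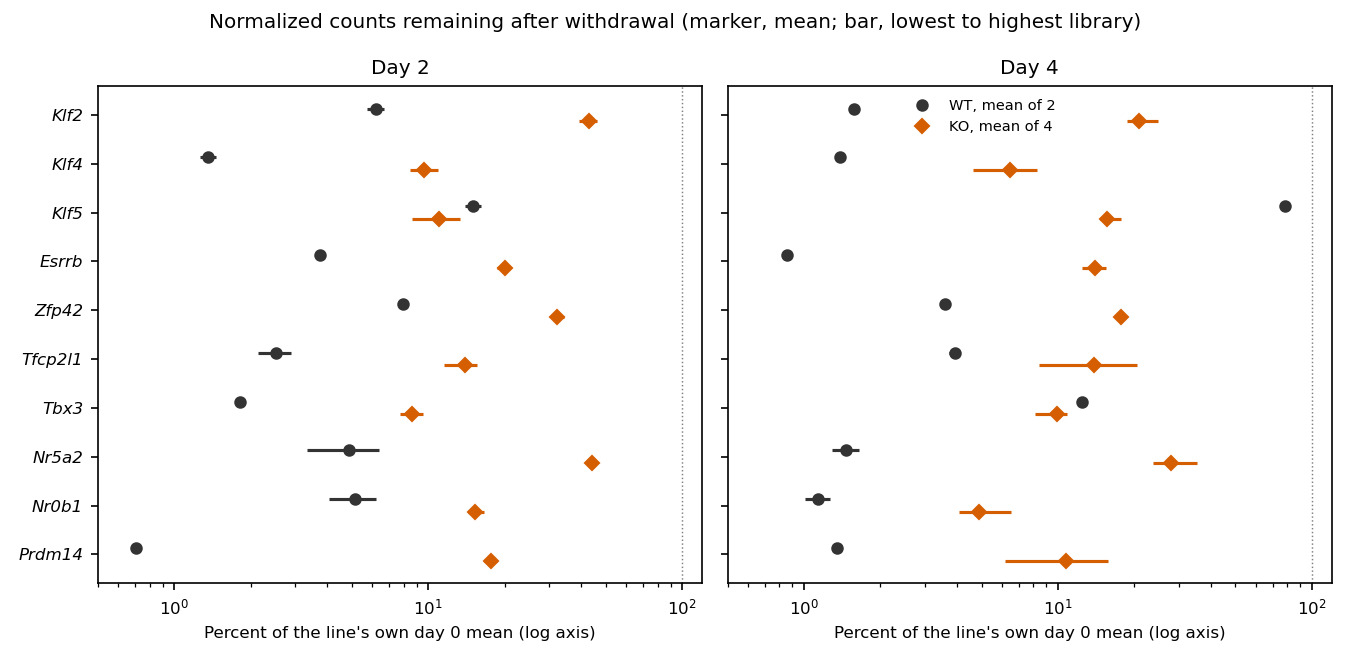
Share of the day 0 level left at day 2 and day 4 for each gene, as a percent of the mean of the same line at day 0 (log axis), with markers for the mean of the 2 WT or 4 KO libraries and bars from the lowest to the highest library. At day 2 the KO marker lies to the right for 9 genes, and at day 4 the WT markers of Klf5 (78% left) and Tbx3 (12.5%) lie to the right of KO.

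Counted without a model, every KO library stood above the WT pair for 8 of the 10 genes before withdrawal, for 9 at day 2 and for 8 at day 4, and such separation was seen for 23.1%, 26.2% and 23.9% of all genes. Below both WT libraries were Tbx3 and Prdm14 at day 0 and Klf5 and Tbx3 at day 4, against 24.3% and 25.9% of all genes. The exact permutation test of 4 libraries against 2 cannot go below a 2-sided p of 0.0667, so it cannot pass 0.05 for a single gene. The error of the day 0 mean is not part of the shares left.

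The speed of the decline was tested as the difference between the change in KO and the change in WT. From day 0 to day 2 all 10 genes were called lower in WT and all 10 in KO, where 4.02% and 1.77% of all genes were. The fall was smaller in KO for 8 of the 10, all but Klf5 and Nr0b1, and larger for 0 (1 at an unadjusted p under 0.05 in limma, 0 by limma-voom), against 2.08% and 1.11% of all genes, with differences from 0.71 for Prdm14 to 1.76 for Klf2 on the VST scale. By limma-voom it was smaller for 9, all but Klf5, against 4.09% of all genes, and there the order differed, with 4.34 (SE 0.76, adjusted p = 5.00e-04) for Prdm14 and 2.78 (SE 0.16, adjusted p = 7.79e-10) for Klf2. These contrasts share the WT and the KO libraries of day 0 with the comparison of that day.

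From day 2 to day 4, 3 genes were called lower in WT, Klf2, Esrrb and Zfp42, and Klf5 and Tbx3 were called higher, against 3.07% and 5.69% of all genes. In KO Klf2, Zfp42 and Nr0b1 were called lower and 0 higher (1 at an unadjusted p under 0.05 in limma, 0 by limma-voom), against 0.565% and 0.923%. Zfp42 in WT and Nr0b1 in KO stood at the fold threshold and lost the call without 1 library, Zfp42 without WT replicate 2 of day 2 (−0.56) or of day 4 (−0.57), and also after median centring of the libraries (−0.57), and Nr0b1 without KO-1 replicate 1 of day 4 (−0.58). The change differed between KO and WT for Klf5, by −1.28 (SE 0.14, adjusted p = 3.86e-07, limma, Benjamini-Hochberg), and for Tbx3, by −1.03 (SE 0.09, limma adjusted p = 1.05e-08), both called higher in WT and not in KO, and 0 differed in the other direction (1 at an unadjusted p under 0.05 in limma, 2 called by limma-voom against 6.76% of all genes), where 4.27% and 2.15% of all genes were called. Over the whole course, from day 0 to day 4, 9 genes were called lower in WT, all but Klf5, and all 10 in KO, against 6.16% and 3.06%. The fall was smaller in KO for Klf2, Klf4, Esrrb, Zfp42 and Nr5a2 and larger for Klf5, against 2.81% and 4.13% of all genes, and with KO-2 alone that of Klf4, 0.57, was under the fold threshold. For the same span limma-voom called 8 smaller and 1 larger, against 6.89% and 8.01%. On the VST scale the largest differences over the course were those of Esrrb, 1.92 (SE 0.11, adjusted p = 2.22e-11, limma, Benjamini-Hochberg), and Klf2, 1.64 (SE 0.10, limma adjusted p = 1.06e-10), and that of Klf5 in the other direction, −1.70 (SE 0.14, limma adjusted p = 5.48e-09). By limma-voom that of Nr5a2, 4.24 (SE 0.47, adjusted p = 8.96e-07), stood beside those of Esrrb, 4.01 (SE 0.20, adjusted p = 1.28e-11), and Klf2, 3.73 (SE 0.19, adjusted p = 2.45e-11), and the differences between these 3 were not tested.

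**Figure D3:**
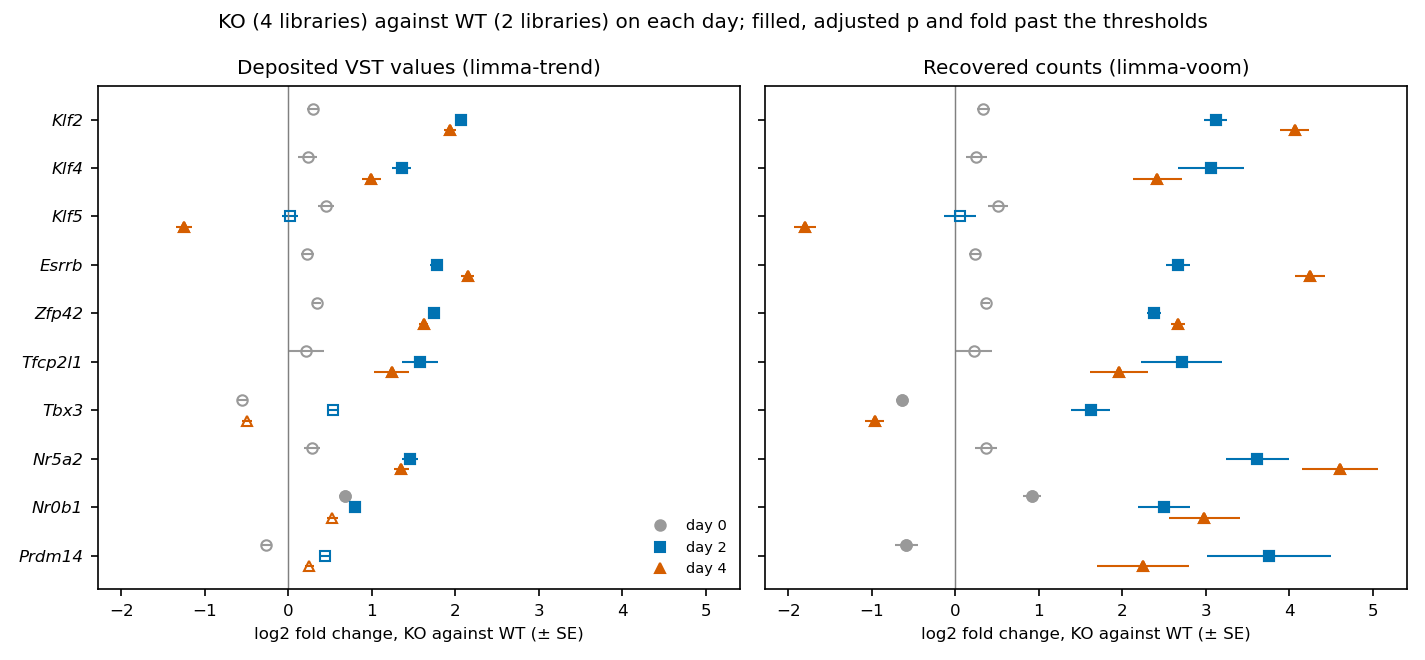
Log2 fold change of KO (4 libraries) against WT (2 libraries) for each gene at day 0, 2 and 4, with bars of ± SE, on the deposited VST values (left) and on the recovered counts (right), where filled markers are past both thresholds. The left panel has 7 filled markers to the right of 0 at day 2 and 6 at day 4, and the right panel 9 and 8.

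KO cells at day 4 were also set against WT cells at day 2. For 7 genes, Klf2, Klf4, Esrrb, Zfp42, Tfcp2l1, Tbx3 and Nr5a2, the KO level of day 4 was called above the WT level of 2 days earlier, and for 0 below it (also 0 at an unadjusted p under 0.05 in limma and by limma-voom), against 4.08% and 2.48% of all genes. Klf2 had 1520 ± 169 counts in KO at day 4 (SD, n = 4) and 359.9 ± 38.9 in WT at day 2 (SD, n = 2), a difference of 1.24 (SE 0.07, adjusted p = 3.65e-11, limma, Benjamini-Hochberg). Nr0b1 was nearer, with 111 ± 25.7 and 61.8 ± 18.6 and a difference of 0.21 (SE 0.07, limma adjusted p = 0.0196). Klf5 and Prdm14, at 0.32 (SE 0.10, limma adjusted p = 0.00948) and 0.31 (SE 0.06, limma adjusted p = 1.39e-04), were not called either. By limma-voom 8 were called higher, against 11.1% of all genes, Prdm14 among them at 2.94 (SE 0.75, adjusted p = 0.00343).

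The clones were compared in a fit with 9 groups. At day 0 and day 2 limma with Benjamini-Hochberg adjustment called 0 of the 10 genes between KO-1 and KO-2 (3 and 2 had an unadjusted p under 0.05, all higher in KO-1, and limma-voom called 0 as well), where 0.0290% and 0.0435% of all genes were called. At day 4 Tfcp2l1 was called, higher in KO-1 by 0.97 (SE 0.10, adjusted p = 6.39e-06, limma, Benjamini-Hochberg), against 0.251% of all genes. With day 4 fitted alone this call was lost (limma adjusted p = 0.0461). On that day 9 of the 10 differences were toward KO-1, 6 had an unadjusted p under 0.05 in limma, all higher in KO-1, and limma-voom called 2. Klf4 was higher in KO-1 by 0.46 (SE 0.05, limma adjusted p = 2.81e-05) at day 4, under the fold threshold, with 772 ± 22.8 counts against 436 ± 25.9 (SD, n = 2). By limma-voom Klf4 was called, at 0.82 (SE 0.09, adjusted p = 1.13e-05). Nsd1 itself stood at 1006 ± 136 in KO-1 and 629.7 ± 76.8 in KO-2 on that day, a difference of 0.41 (SE 0.08, limma adjusted p = 0.00294). Its part in the difference between the clones was not tested. Against WT, 7 genes were called higher in each clone at day 2, where 3.63% of all genes were in KO-1 and 4.54% in KO-2. At day 4 each clone had 6 called higher and 1 lower, against 4.09% and 4.01% of all genes in KO-1 and 3.55% and 4.08% in KO-2.

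Across the 18 libraries the 10 genes ran alike except for 2. Pearson's r of each with the mean of the standardized VST values of all 10 was 0.998 for Klf4, 0.989 for Tfcp2l1 and 0.98 for Prdm14, and lowest for Tbx3 (0.902) and Klf5 (0.74), the 2 genes that rose again in WT. Among the 45 pairs r ranged from 0.447 to 0.993, and among the 28 pairs without Klf5 and Tbx3 from 0.876 to 0.993. Outside the set, the 10 genes with the highest r with this mean were Ttyh2 (0.988), Cobl (0.987), Spp1 (0.985), Jam2 (0.985), Serpinb6c (0.984), Sun1 (0.984), Fbrsl1 (0.984), Cdyl2 (0.984), Phaf1 (0.983) and Manba (0.983). Jam2, for example, went in WT from a mean of 2821 normalized counts through 109 to 19.7, and in KO from 2988 through 775 to 396. The libraries are groups of days and genotypes and not independent draws, so these values describe a shared course and carry no test.

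The genes that work with the 10 were taken from lists of known members, and their levels are means of normalized counts (± SD, n = 2 for WT and n = 4 for KO). Calls in these lists are those of limma on the VST values unless limma-voom is named. Of 9 core factors and cofactors, 4 were called higher and 1 lower in KO at day 2, and 5 higher and 0 lower at day 4, with 1 higher and 0 lower at day 0. Limma-voom called 2, 4 and 6 higher and 0, 1 and 1 lower on the successive days, and at an unadjusted p under 0.05 in limma 1, 2 and 1 were lower. Sox2 was 2048 ± 22.1 in WT and 6562 ± 284 in KO at day 2 and 235 ± 25 in WT and 4293 ± 198 in KO at day 4, a difference of 2.72 (SE 0.06, limma adjusted p = 1.45e-18). Utf1, a chromatin-bound cofactor, and Gbx2, a homeobox gene downstream of LIF, were higher in KO at day 4 by 1.54 (SE 0.18, limma adjusted p = 4.89e-07) and 0.73 (SE 0.09, limma adjusted p = 1.24e-06). Pou5f1 was the one called lower on the VST values, at day 2, with a difference of −0.69 (SE 0.08, limma adjusted p = 1.31e-06) and 8886 ± 705 in WT and 5266 ± 618 in KO, and at day 4, with 5417 ± 72 in WT and 3537 ± 214 in KO, it was under the fold threshold at −0.54 (SE 0.08, limma adjusted p = 2.68e-05). Pou5f1 stands outside the rule for named genes and was picked after its values were seen.

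Of 11 other markers of the naive state, 2 were called higher and 1 lower at day 0, 7 higher and 0 lower at day 2 and 8 higher and 0 lower at day 4. By limma-voom 2, 7 and 10 were higher and 1, 0 and 0 lower, and at an unadjusted p under 0.05 in limma 3, 0 and 0 were lower. Dppa3 (Stella) was higher in KO at each day, with 85.7 ± 9.28 in WT and 749 ± 133 in KO at day 0 and 3.16 ± 4.47 in WT and 269.8 ± 22.5 in KO at day 4, a difference of 1.17 (SE 0.11, limma adjusted p = 1.39e-08). Fbxo15, an F-box gene, was higher by 1.23 (SE 0.08, limma adjusted p = 5.25e-11) and Tdh, which encodes threonine dehydrogenase, by 1.60 (SE 0.09, limma adjusted p = 4.61e-12) at day 4. The marker called lower at day 0 was Pecam1, named for that call, with 2174 ± 127 in WT and 292 ± 111 in KO.

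The LIF pathway, represented by 6 genes, had 1, 2 and 1 called higher by limma on the successive days and 0 lower. By limma-voom 2, 4 and 1 were higher and 0, 0 and 2 lower, and at an unadjusted p under 0.05 in limma 0, 0 and 2 were lower. On the VST values those 2, named for that, were Stat3, which carries the LIF signal, with 935 ± 50.2 in WT and 547 ± 77.9 in KO and a VST difference of −0.46 (SE 0.07, limma adjusted p = 2.06e-05), and Bcl3, with 79.6 ± 14.3 in WT and 19.7 ± 10.2 in KO and −0.36 (SE 0.10, limma adjusted p = 4.98e-03). Lifr, the receptor, was higher in KO throughout, by 0.67 (SE 0.12, limma adjusted p = 2.93e-04) at day 0, 1.32 (SE 0.12, limma adjusted p = 3.64e-08) at day 2 and 0.98 (SE 0.12, limma adjusted p = 1.47e-06) at day 4. Il6st, which encodes the shared signalling chain gp130, was higher at day 2 by 1.27 (SE 0.09, limma adjusted p = 7.20e-10) and differed at day 4 by −0.11 (SE 0.09, limma adjusted p = 3.79e-01). Of 10 regulators that promote exit, 0 were called by limma at day 0 and day 2 (at an unadjusted p under 0.05, 5 were higher and 1 lower, and 4 higher and 1 lower, and limma-voom called 1 and 0), while Tcf7l1, a repressor of the network, was called higher at day 4 (3 higher by limma-voom, and 0 lower by either, also at an unadjusted p under 0.05), with 773 ± 59.8 in WT and 1681 ± 233 in KO, by 0.76 (SE 0.07, limma adjusted p = 3.91e-08).

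Formative genes, the program that follows the naive state, differed in both directions. At day 2, 7 of 10 were called lower and 0 higher, and at day 4, 4 were called higher and 2 lower, after 2 higher and 2 lower at day 0. Limma-voom gave 0 higher and 8 lower at day 2 and otherwise the same numbers, and at an unadjusted p under 0.05 in limma 0 were higher and 10 lower at day 2. Dnmt3b, a de novo DNA methyltransferase, had 43760 ± 2002 in WT and 27930 ± 1079 in KO at day 2 and 5780 ± 197 in WT and 19190 ± 1633 in KO at day 4, differences of −0.64 (SE 0.07, limma adjusted p = 7.09e-07) and 1.62 (SE 0.07, limma adjusted p = 3.07e-13). Sall2 turned over in the same way, from −0.91 (SE 0.08, limma adjusted p = 1.53e-08) at day 2 to 1.59 (SE 0.08, limma adjusted p = 1.74e-12) at day 4, and Dnmt3a was higher at day 4 by 1.26 (SE 0.07, limma adjusted p = 1.03e-11). Fgf5, Pou3f1 and Otx2 stand outside the rule for named genes and were picked as the formative genes introduced above. Their differences at day 2 were −1.97 (SE 0.18), −1.64 (SE 0.06) and −1.53 (SE 0.18), all called lower in KO. At day 4 only Fgf5 of these was called, lower at −0.83 (SE 0.18, limma adjusted p = 9.42e-04). Of 6 primitive streak genes limma called 0 at day 0 and day 2 (3 lower, and 1 higher and 2 lower, at an unadjusted p under 0.05, and limma-voom 0 and 1) and 5 were called lower at day 4, led by T with 16250 ± 273 in WT and 139.6 ± 90.4 in KO, Mixl1 with 6829 ± 141 in WT and 38.9 ± 12.1 in KO and Eomes with 5637 ± 221 in WT and 415 ± 186 in KO.

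Among 14 Krüppel-like genes outside the set, limma called 0 at day 0 (5 higher and 4 lower at an unadjusted p under 0.05, and 1 in each direction by limma-voom), and 2 higher and 0 lower at day 2 and again at day 4. Limma-voom called 4 higher and 3 lower at day 2 and 7 higher and 0 lower at day 4, and at an unadjusted p under 0.05 in limma 3 and 2 were lower. Klf8 was higher at day 2 by 1.02 (SE 0.09, limma adjusted p = 2.52e-08), Klf9 at both days, by 0.72 (SE 0.08, limma adjusted p = 2.73e-07) and 0.64 (SE 0.08, limma adjusted p = 9.57e-07), and Klf13 at day 4 by 0.69 (SE 0.11, limma adjusted p = 3.72e-05). The nearest relatives of the other members, 7 in the table of 8 listed, had 0 called by limma at any day (at an unadjusted p under 0.05, 2 higher and 1 lower, 3 and 1, and 1 and 1 at the 3 days, and by limma-voom 1 lower, 1 lower and 1 higher). Of 5 genes that Prdm14 is known to repress, 2 of them also in the formative list, 2 were called higher at day 0, 2 higher and 1 lower at day 2 and 4 higher at day 4, with Dnmt3l at 1206 ± 29.8 in WT and 6858 ± 1846 in KO at day 4, a difference of 2.02 (SE 0.14, limma adjusted p = 3.22e-10). Among 5 germ cell genes limma called 0 at day 0 (3 higher and 1 lower at an unadjusted p under 0.05, 1 in each direction by limma-voom), 2 higher at day 2 and 1 at day 4, and limma-voom called 4 and 3 higher at the later days. The limma calls were Tfap2c, by 1.35 (SE 0.09, limma adjusted p = 5.01e-10) at day 2 and 0.77 (SE 0.09, limma adjusted p = 8.54e-07) at day 4, and Prdm1 at day 2, by 0.85 (SE 0.07, limma adjusted p = 4.21e-09).

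**Figure D4:**
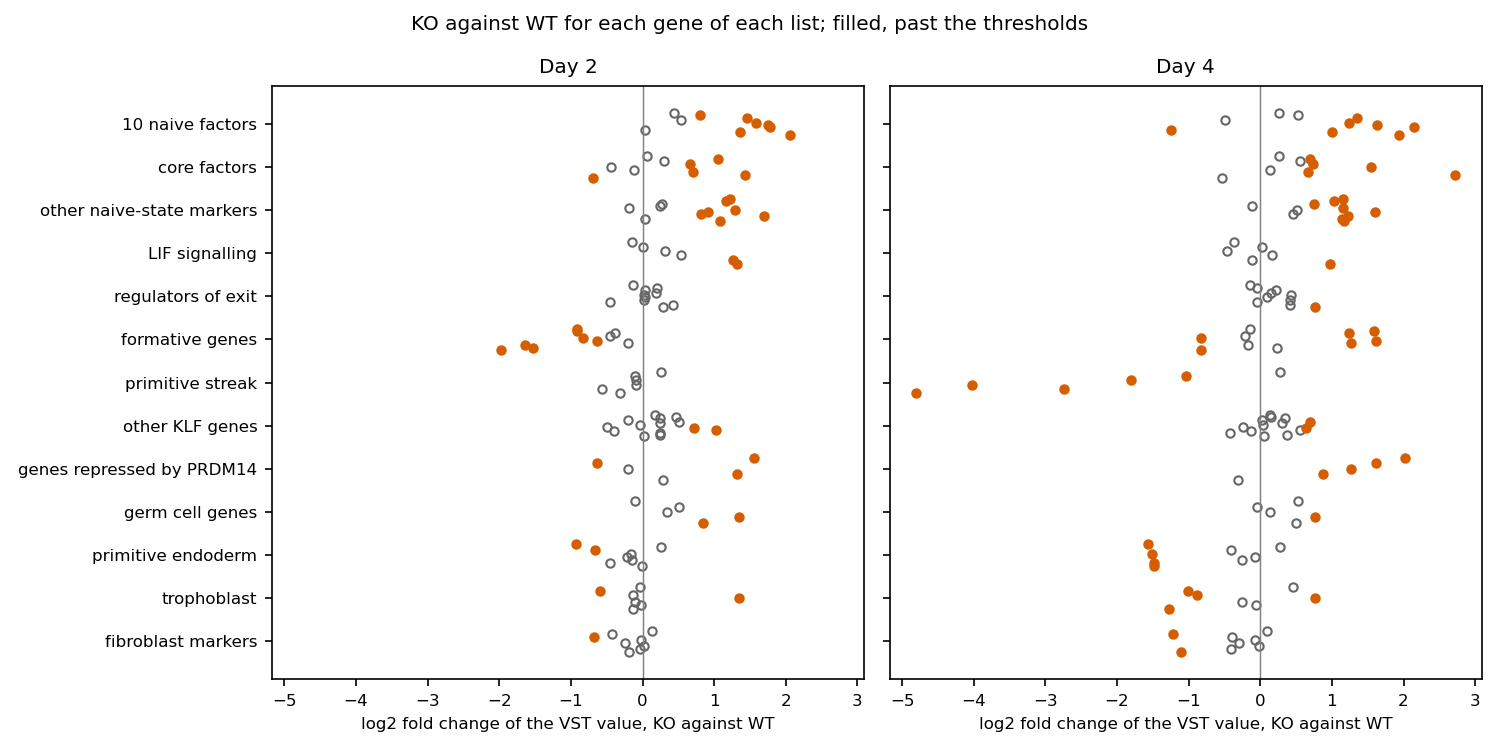
Log2 fold change of the VST value of KO against WT at day 2 and day 4 for each gene of each list, with filled points past both thresholds. The 10 naive factors and the other naive markers lie mostly to the right of 0 at both days and the formative genes mostly to the left at day 2. At day 4, 5 of the 6 primitive streak genes lie far to the left, where T reaches −4.80, and Foxa2 lies to the right at 0.28.

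The libraries are bulk RNA, so a smaller number of naive cells and less RNA in each cell cannot be told apart. The labelled cell type was checked at day 0, where 5 markers of pluripotent cells summed to 38380 ± 104 normalized counts for WT (SD, n = 2) against 36420 ± 389 for KO (SD, n = 4). At day 2 the sums were 23090 ± 73.6 and 23020 ± 824, and without Sox2, the most abundant gene of the list over all libraries, they were 21050 ± 95.7 and 16460 ± 540.2. By day 4 these markers summed to 13440 ± 325 and 19960 ± 572, with 3 of 5 called higher in KO and 0 lower by limma (1 lower, Pou5f1, at an unadjusted p under 0.05 and by limma-voom), after 2 higher and 1 lower at day 2. At day 0 limma called 0 (1 in each direction at an unadjusted p under 0.05, 0 by limma-voom).

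Markers of other cells moved as well. The 8 fibroblast markers, which feeder cells express, summed to 3108 ± 66.2 in WT and 4880 ± 395 in KO at day 0, 1091 ± 111 and 647 ± 74.2 at day 2 and 2708 ± 85.9 and 915 ± 368 at day 4 (SD, n = 2 and n = 4). At day 0, 3 were called higher in KO and 1 lower. Col1a1 was the most abundant, with 1482 ± 15.8 in WT and 2732 ± 290.3 in KO at day 0 and 1583 ± 86.2 in WT and 492 ± 227 in KO at day 4, and Lum was at 3 counts or fewer in every library of day 0 and day 2. Pdgfrb was lower in KO at day 0, with a difference of −0.67 (SE 0.06, limma adjusted p = 9.23e-08). At day 2 and day 4 limma called 1 and 2 lower and 0 higher (1 and 0 higher at an unadjusted p under 0.05), and limma-voom called 2 and 5 lower and 0 higher. Their part in the differences of the naive factors was not tested.

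Primitive endoderm markers, 8 genes, summed to 1352 ± 8.5 in WT and 1103 ± 59.3 in KO at day 0, 1827 ± 52.9 and 639 ± 47.9 at day 2 and 5892 ± 112 and 1176 ± 111 at day 4, with 0, 2 and 4 called lower in KO by limma and 3, 4 and 6 by limma-voom, and 0 higher by either. At an unadjusted p under 0.05 in limma 4, 6 and 6 were lower and 0, 1 and 1 higher. Col4a1 was the most abundant, and Gata4 and Pdgfra had 700.2 ± 41.1 in WT and 35.2 ± 10 in KO and 845 ± 17.4 in WT and 60 ± 7.24 in KO at day 4, the day on which Klf5 and Tbx3 were higher in WT. Sox17 and Sox7 stayed low, at 34 and 14 counts or fewer in every library. Foxa2, which the primitive streak list holds too, had 15.5 ± 4.86 in WT and 59.2 ± 34.2 in KO at day 4. Whether the cells with these markers were primitive endoderm was not tested. For Tbx3 both WT libraries were above every KO library at day 0 as well. The 7 trophoblast markers summed to 1816 ± 19.3 in WT and 2585 ± 287 in KO at day 0, 371 ± 10.6 and 926 ± 48.5 at day 2 and 2073 ± 55.8 and 1163 ± 72.2 at day 4. Tfap2c, which the germ cell list holds too, set the direction at day 0 and day 2, since the other 6 markers summed to 362 ± 26.1 and 247 ± 63.2 at day 0, 290.1 ± 16 and 139 ± 29 at day 2 and 1822 ± 50.5 and 415 ± 130.1 at day 4, in WT and KO in this order. Of all 7, limma called 0 at day 0 (1 higher and 2 lower at an unadjusted p under 0.05, 1 in each direction by limma-voom), 1 higher and 1 lower at day 2 and 1 higher and 3 lower at day 4 (2 and 4 by limma-voom), and the one called higher by limma was Tfap2c on both days. Among them Cdx2 had 1098 ± 20.3 in WT and 204 ± 65.5 in KO at day 4, while Elf5, a defining trophoblast gene, was at 8 counts or fewer in every library. Markers of the 2-cell-like state, of which 5 of 6 were in the table, summed to 394 ± 30.7 in WT and 156 ± 13.7 in KO at day 0, 501 ± 9.94 and 56.6 ± 9.35 at day 2 and 22.2 ± 2.79 and 15.1 ± 4.61 at day 4, with Zscan4c the most abundant and 2 called lower in KO at day 2 by limma, 4 by limma-voom. At day 0 and day 4 limma called 0 of them (5 and 0 were lower at an unadjusted p under 0.05, 4 and 0 by limma-voom). The part of these cells in the values of the 10 genes was not tested.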

How the data were processed

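RNA from 18 libraries was measured, 2 per line (WT, KO-1, KO-2) and day (0, 2, 4). The authors trimmed reads with Trim Galore 0.6.7, aligned them to mm39 with STAR 2.7.11a, counted primary nonduplicated reads on exons with featureCounts 2.0.6 and left out genes with a mean count under 1. The expression table of the authors that was used here holds DESeq2 1.42.0 VST values, which are on a log2 scale. The VST was inverted here, and 100% of values came out whole within 0.01. Of recovered counts from 1 to 20, 74.9% were even, and the cause was not found. Totals ran from 9309874 to 23921193 counts, and the shallowest libraries give the least precise low values.

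The 6 groups of genotype and day were fitted by limma 3.58.1 in R 4.3.3, with a trend in the prior, on the VST values of 20703 genes. Benjamini-Hochberg adjustment ran over all of them, and a gene was called at an adjusted p under 0.01 with an absolute log2 fold change over 0.58. Clones were compared in a fit of 9 groups. The code was tested on simulated data. Alternatives were limma-voom on recovered or thinned counts, each day or clone alone, clones as groups, genes under the 25th percentile left out, the replicate number as a block, other scalings and thresholds, and each library left out in turn. Shares of day 0 were also scaled by total count, turned back from VST means, or set against all day 0 libraries of the genotype. Chi-square per degree of freedom between replicates was 2.22 (KO-2 day 0) to 12.64. It takes counts as independent, which the even counts put in doubt, so the lowest value may lie near sampling noise. No replicates held identical values, and all were kept. Python 3.11.15 made the summaries. Members and gene lists were chosen with earlier results of these data known. Of each list of related genes, up to 3 are named, those with the largest change at day 4 among the genes called at any day, besides those said to be picked otherwise.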

Additional observations from a re-analysis of the deposited data

Results flagged for a closer look

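Among the 30 groups of 4 KO libraries tested for a value far from the others, chance alone would mark about 1 in 20. In 1 group a library stood apart, Klf2 at day 0, where KO-1 replicate 1 had 6621 normalized counts and the other 3 KO libraries 7506 to 7538.

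The change from day 0 to day 2 differed between KO and WT in 8 genes on the VST scale (limma with Benjamini-Hochberg adjustment, log2 difference of the changes). It was 1.76 for Klf2, 1.12 for Klf4, 1.55 for Esrrb, 1.40 for Zfp42, 1.36 for Tfcp2l1, 1.09 for Tbx3, 1.18 for Nr5a2 and 0.71 for Prdm14, each a smaller fall in KO. From day 2 to day 4 it was −1.28 for Klf5 and −1.03 for Tbx3, both of which rose in WT. From day 0 to day 4 it was 1.64 for Klf2, 0.76 for Klf4, 1.92 for Esrrb, 1.28 for Zfp42, 1.07 for Nr5a2 and −1.70 for Klf5. These spans share libraries and are not separate evidence.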

How the results depend on the processing

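Counts of called genes kept within 1.5 times of those reported in 268 comparisons with the other settings and moved further in 20. By limma-voom, with full or thinned counts, 2 genes were lower in KO at day 0, 2 at day 4 and 2 differed between clones at day 4, while 5 fell in KO from day 2 to day 4, 2 fell less in KO over that span and 8 from day 0 to day 4. Without a fold threshold the counts were 4 higher and 2 lower at day 0, 2 lower at day 4, 4 between clones at day 4 and 6 that fell in KO from day 2 to day 4. KO-1 alone gave 1 lower at day 0 and 1 that fell more in KO by day 2, and day 4 fitted alone gave 0 between clones. Leaving out each library in turn gave 0 to 1 lower at day 0 (Tbx3, without KO-2 day 0 replicate 2), 7 to 8 that fell less by day 2, 2 to 3 that fell from day 2 to day 4 in WT and in KO and 5 to 6 that fell less by day 4.

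Directions turned only for differences that were not called on the VST scale. Klf5 at day 2 was −0.050 with KO-1 alone, −0.057 after quantile normalization and −0.025 to 0.082 with a library left out. Klf4 in WT from day 2 to day 4 ranged from −0.023 to 0.036 with a library left out, and Tfcp2l1 in KO to 0.406 with KO-1 alone and to between −0.244 and 0.139 with a library left out. The difference of the changes from day 2 to day 4 became, by limma-voom with full and thinned counts, 0.944 and 0.976 for Klf2, 0.289 and 0.270 for Zfp42, 0.991 and 0.798 for Nr5a2 and 0.480 and 0.576 for Nr0b1, with 0.114 for Tfcp2l1 with KO-1 alone and a range from −0.206 to 0.004 for Nr5a2 with a library left out. From day 0 to day 4 it became −0.327 and −0.248 for Tbx3 and 2.062 and 2.126 for Nr0b1. The cause was not tested.

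The difference between replicate 1 and replicate 2, over 10351 genes, was correlated between pairs of groups in both directions. Over 36 pairs r ran from −0.612 to 0.636, with a mean of −0.0476 and 13 over 0.1. Positive and negative values offset each other in this mean, so it does not show that libraries of different groups deviated independently. With the replicate number as a block, every count of called genes was as without it, 7 higher in KO at day 2 and 6 at day 4. With 2 WT libraries a day, low WT counts such as those of Prdm14 limit the folds.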
